A study of Mus musculus with 6 samples.

Results

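Cytosolic ribosomal protein genes encode the proteins that form, with ribosomal RNA, the large and small subunits of the ribosomes outside mitochondria. Members were the row names that begin with Rpl or Rps followed by a digit and that stand in all 6 UMI tables, without names that carry -ps and without the Rps6k kinases. The rule found 81 members among 19361 row names. A further 3 matching names, Rpl10l, Rpl39l and Rpl3l, were missing from at least 1 table. Of the members, 46 carry large-subunit names and 35 small-subunit names. The label holds for 73 members, which encode 43 core large-subunit and 30 core small-subunit proteins. The other 8 are Rpl7l1, Rpl22l1, Rpl36al, Rps27l and Rps4y2, which are variant copies, Rps3a2 and Rps3a3, which the gene annotation lists as processed pseudogenes, and Rps19bp1, which encodes a binding protein of Rps19.

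The study profiled single cells of mouse brains by Drop-seq, in which beads capture polyadenylated RNA by its 3′ end, each molecule is counted once by a random tag (UMI), and a barcode marks the cell. The 6 libraries came from female C57BL/6 mice of 2 to 3 months, whose brain cells were released with papain, cleared on Percoll and enriched on magnetic columns for Cd11b, a surface marker of myeloid cells. Metastasis libraries 1 and 2 held 1 brain each from mice that had received E0771 cells, a mouse mammary carcinoma line, by injection into the heart 2 to 3 weeks earlier, and naive libraries 1 and 2 held 1 brain each from mice without tumour cells. The Cx3cr1-null (Cx3cr1-/-) and the Cx3cr1-heterozygous (Cx3cr1+/-) library pooled 2 brains each, and both came from mice with metastases, so they have no counterpart without them; how the allele was made is not given in the sources used here. Metastasis 2, naive 2, Cx3cr1-null and Cx3cr1-heterozygous were read on a NextSeq 500, and metastasis 1 and naive 1 on a HiSeq 2500.

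Each table held 1000 barcodes and between 491621 and 2667099 UMIs, and 77 to 940 barcodes per library passed the filters. Cells were clustered without the members, and the barcodes called microglia-like numbered 153 in metastasis 1, 73 in metastasis 2, 369 in naive 1, 120 in naive 2, 117 in Cx3cr1-null and 179 in Cx3cr1-heterozygous. All 11 microglia markers were detected in the microglia-like barcodes of every library, at a summed level of 7279 CPM (UMIs of a gene per 1000000 UMIs) in metastasis 1 and 17736 to 26742 CPM in the other 5 libraries. Metastasis 2 held 0 carcinoma-like barcodes and 1 monocyte or macrophage-like barcode, and a cluster led by Cd74 and H2-Eb1 had 1 barcode there and 30 in naive 2. The names of some deposited tables for mice with unaltered Cx3cr1 do not go with the group labels, and the labels were followed here. Cx3cr1 itself, the fractalkine receptor of microglia, had 53.3 CPM from 18 UMIs in the Cx3cr1-null library and 1310 CPM from 945 UMIs in the Cx3cr1-heterozygous library, a log2 ratio of −4.62 (95% counting interval −5.38 to −3.95). Libraries shared at most 1 cell barcode between any pair.

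Ribosomal proteins are made in near-equal numbers of copies, since each ribosome holds most of them once. Their mRNAs are among the most abundant of growing cells, and most begin with a run of pyrimidines, the terminal oligopyrimidine or TOP motif, through which the kinase mTORC1 and the RNA-binding protein Larp1 set their translation together. Microglia, the resident macrophages of the brain, divide little in the healthy adult, while carcinoma cells divide steadily and build ribosomes to do so.

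The starts of member genes hold pyrimidine strings more often than other genes do, a feature that the choice of members did not use, although most of the members' windows have none of the strings searched. RefSeq (build GRCm38.p6) gave 70 starts for 59 members, and the 30 bases from 10 before to 20 after each start were searched on the gene's own strand for 5 strings, namely CTTTT and CTTTC and CTTCC and CCTTT and CTCTT, with overlaps allowed. At least 1 of the 5 strings stood in 40% of the members' windows and in 15.99% of the windows of all 32851 starts in the table. CTTTC was in 18.6% of members' windows and 3.74% of all windows, CTCTT in 18.6% and 3.90%, CTTCC in 20% and 6.36%, CCTTT in 10% and 3.20%, and CTTTT in 7.14% and 3.10%. The windows of 11 members whose levels are described further on are shown here, with and without a match, 5′ to 3′, with the matching strings in capitals; the start is base 11.
Rpl13a, chr7:45128726-45128755, minus strand: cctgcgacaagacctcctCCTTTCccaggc
Rps9, chr7:3704031-3704060, plus strand: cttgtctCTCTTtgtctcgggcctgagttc
Rpl35, chr2:39005112-39005141, minus strand: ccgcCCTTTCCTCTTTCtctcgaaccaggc
Rpl38, chr11:114668570-114668599, plus strand: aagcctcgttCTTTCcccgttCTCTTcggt
Rps7, chr12:28635934-28635963, minus strand: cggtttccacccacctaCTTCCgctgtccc
Rpl41, chr10:128549149-128549178, minus strand: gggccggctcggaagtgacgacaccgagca
Rpl22l1, chr3:28805498-28805527, plus strand: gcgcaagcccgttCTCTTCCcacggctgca
Rps16, chr7:28350679-28350708, plus strand: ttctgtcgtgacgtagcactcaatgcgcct
Rpl31, chr1:39367841-39367870, plus strand: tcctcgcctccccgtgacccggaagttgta
Rps27l, chr9:66946076-66946105, plus strand: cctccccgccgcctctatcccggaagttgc
Rpl4, chr9:64173377-64173406, plus strand: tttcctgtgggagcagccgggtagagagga

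Rpl13a, Rps9, Rpl35, Rpl38, Rps7 and the variant copy Rpl22l1 hold a matching string, and Rpl41, Rps16, Rpl31, Rps27l and Rpl4 hold none of the 5 strings in these windows. Matches are thus more frequent among the windows shown than the 40% over all member windows. Rpl38, whose window has matches, and Rpl41, whose window has none, share a library pattern given further on. Whether the strings go with the levels of members was not tested.

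The share of UMIs that came from members differed between cell classes within metastasis 1, the library with the most classes. This is 1 library, so intervals cover counting error only and no test was run. Carcinoma-like cells gave members 10.45% of their UMIs (95% exact binomial interval 10.38 to 10.52%, 61 barcodes), and NK cell-like cells gave 8.23% (7.94 to 8.53%, 18 barcodes). Monocyte or macrophage-like cells gave 5.88% (5.83 to 5.94%, 210 barcodes) and microglia-like cells 4.73% (4.65 to 4.81%, 153 barcodes). Carcinoma-like cells thus stood highest and microglia-like cells lowest, a difference of 5.72 percentage points (5.57 to 5.87) or 2.21 times, and NK cell-like cells were 3.51 points above microglia-like cells. Of the clusters that no marker list named, the one led by Ccr7 gave 6.92% (11 barcodes), the one led by S100a8 and S100a9 gave 6.69% (42 barcodes) and the one led by mt-Rnr1 gave 6.58% (438 barcodes). These 3 clusters lay between the NK cell-like and the monocyte or macrophage-like cells. Against all other barcodes, the leading genes of the mt-Rnr1 cluster by detection included Rhox5 and Wfdc2, which are on the carcinoma marker list. Against metastasis 1 alone they did not, and Enpp2 and Hist1h1b led it. The carcinoma-like value thus covers only the 61 barcodes that the marker rule named, and carcinoma cells outside them cannot be told from these data. Single barcodes also separated the highest class from the lowest: the median barcode had 10.2% in carcinoma-like cells, with quartiles of 8.95 and 11.5%, and 4.70% in microglia-like cells, with quartiles of 3.91 and 5.47%. Carcinoma-like barcodes were deeper, at a median of 8609 UMIs against 1689 in microglia-like barcodes. With each barcode thinned to 800 UMIs the shares were 10.18% in carcinoma-like, 8.44% in NK cell-like and 4.78% in microglia-like cells.

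**Figure D1:**
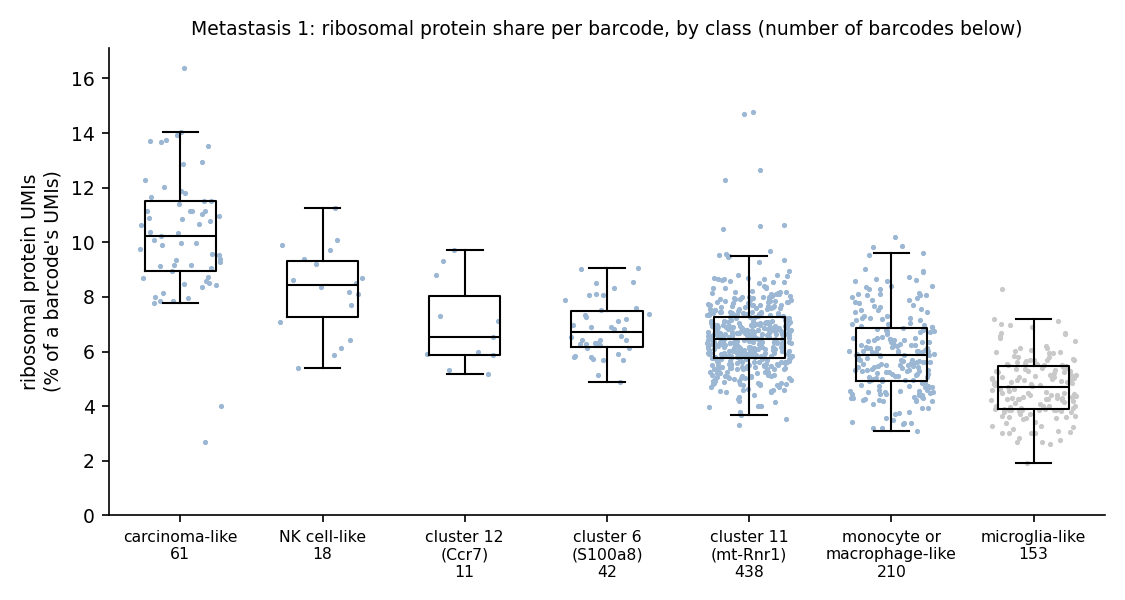
Share of each barcode's UMIs that come from the 81 members (percent, vertical axis) by cell class in metastasis 1, with boxes for the median and quartiles, dots for barcodes and the number of barcodes under each class. The carcinoma-like box, with quartiles of 8.95 and 11.5%, lies above the microglia-like box, with quartiles of 3.91 and 5.47%.

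In naive 1, border-associated macrophage-like cells gave members 4.13% of UMIs (18 barcodes) and microglia-like cells 3.81%. The difference of 0.32 points turned to −0.03 points with barcodes thinned to 800 UMIs. The cluster led by Cd74 and H2-Eb1, genes of antigen presentation on MHC class II, could be compared in 3 libraries. It gave members 5.40% in naive 2 (30 barcodes), 6.31% in Cx3cr1-null (18 barcodes) and 5.15% in Cx3cr1-heterozygous (24 barcodes), where microglia-like cells gave 2.96%, 3.81% and 3.10% in the same order. Its share was 1.66 to 1.83 times that of microglia-like cells in each of the 3 libraries. The cluster led by S100a8 and S100a9 recurred in Cx3cr1-heterozygous with 5.02% (16 barcodes). A share is relative to the other RNA of the same cells, so the amount of ribosomal protein mRNA per cell was not measured.

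Most members took part in these differences. Each member with at least 50 UMIs over a class and the microglia-like cells of its library was set against microglia-like cells as a log2 ratio of CPM, and was counted where its 95% counting interval lay above 0. In carcinoma-like cells 61 of 68 measured members were so counted, beside 40.2% of all genes measured, with a median log2 ratio of 1.15 for members and 0.41 for all genes. In NK cell-like cells 36 of 47 members were counted, beside 13% of all genes, with medians of 0.81 and −0.09. In both classes most measured members were above microglia-like cells. In monocyte or macrophage-like cells 35 of 58 members were counted, beside 17.9% of all genes, with medians of 0.27 and −0.03. The cluster led by S100a8 and S100a9 had 34 of 48 in metastasis 1, beside 19.2%, the one led by mt-Rnr1 had 45 of 61, beside 18.5%, and the one led by Ccr7 had 20 of 46, beside 10.6%. In Cx3cr1-heterozygous the cluster led by S100a8 and S100a9 had 36 of 48, beside 15.1%. A cluster led by the vessel genes Igfbp7 and Cldn5 had 24 of 46 in naive 2, beside 24.7%, and 11 of 48 in Cx3cr1-heterozygous, beside 10%. The cluster led by Cd74 and H2-Eb1 had 41 of 48 in naive 2 (beside 21.1%), 41 of 50 in Cx3cr1-null (beside 25.6%) and 42 of 51 in Cx3cr1-heterozygous (beside 16.4%), with member medians of 0.89, 0.74 and 0.71. Border-associated macrophage-like cells in naive 1 had 7 of 55, beside 8.41%, a share near that of all genes. Intervals are narrower for genes with more UMIs, and the shares of all genes in these comparisons are not matched for UMIs.

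**Figure D2:**
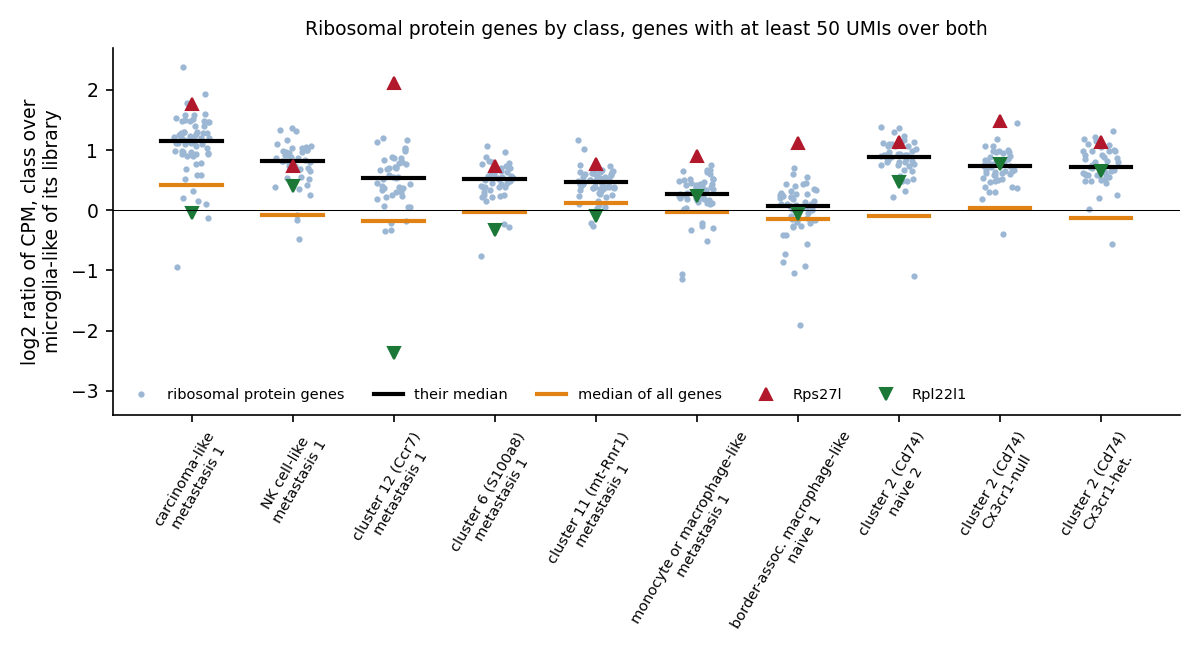
Log2 ratio of CPM in a cell class over microglia-like cells of the same library (vertical axis) for each member with at least 50 UMIs, 1 column per class and library, with the members' median in black and the median of all genes in orange. Upward triangles mark Rps27l and downward triangles Rpl22l1; the members' median is highest in carcinoma-like cells, at 1.15.

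Among members of the large subunit, Rpl32 had 7195 CPM in carcinoma-like and 2564 CPM in microglia-like cells of metastasis 1, a log2 ratio of 1.49 (1.38 to 1.60). Rpl8, which lies near the peptidyl transferase centre, had 4456 CPM in carcinoma-like and 1940 CPM in microglia-like cells (1.20, 1.07 to 1.33). Rpl13a, known also for its role in silencing inflammatory mRNAs, had 3757 CPM in carcinoma-like and 2335 CPM in microglia-like cells (0.69, 0.56 to 0.81). The carcinoma-like level was higher for all 3, and least so for Rpl13a. In the small subunit, Rps7 had 1413 CPM in carcinoma-like and 468 CPM in microglia-like cells (1.59, 1.33 to 1.87). Rps9, at the entry of the mRNA channel, had 2489 CPM in carcinoma-like and 2003 CPM in microglia-like cells (0.31, 0.18 to 0.45), well below the members' median. Rpl24 was the 1 member with an interval below 0, at 59.2 CPM in carcinoma-like and 114 CPM in microglia-like cells (−0.95, −1.65 to −0.24). Rpl24 and Rps7 were picked out after their values were seen.

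The variant copies and other non-core members did not all follow the core genes. Rps27l, a copy of Rps27 that p53 induces (chr9:66946086-66949516, plus strand), had 777 CPM in carcinoma-like and 229 CPM in microglia-like cells (log2 ratio 1.76, 1.39 to 2.16). In the same library it had 985 CPM in the cluster led by Ccr7 (2.11, 1.35 to 2.81) and 429 CPM in monocyte or macrophage-like cells (0.91, 0.51 to 1.32). It was above microglia-like cells in all 3 of these classes by more than the median member was. In NK cell-like cells Rps27l had 382 CPM from 13 UMIs (0.74, −0.24 to 1.61), which is not above the members' median of 0.81. The higher level recurred in the cluster led by Cd74 and H2-Eb1, where Rps27l had 387 CPM against 176 CPM in microglia-like cells of naive 2 (1.14). There it had 462 CPM against 166 CPM in Cx3cr1-null (1.48) and 352 CPM against 161 CPM in Cx3cr1-heterozygous (1.13). In border-associated macrophage-like cells of naive 1 it had 301 CPM against 138 CPM (1.12, 0.34 to 1.83). Rpl22l1, the copy of Rpl22 (chr3:28805436-28807424, plus strand), had 214 CPM in carcinoma-like and 222 CPM in microglia-like cells (−0.05, −0.49 to 0.39), where the median member stood at 1.15. In the cluster led by Ccr7 it rested on 1 UMI, and in the cluster led by Cd74 and H2-Eb1 of Cx3cr1-null it had 353 CPM against 207 CPM in microglia-like cells (0.77, 0.23 to 1.30), close to the members' median there. Rpl36al had 638 CPM in carcinoma-like and 263 CPM in microglia-like cells (1.28, 0.92 to 1.65). Rpl7l1 had 172 CPM in carcinoma-like and 86.6 CPM in microglia-like cells (0.99, 0.36 to 1.67). Rps19bp1, which binds Rps19 and is known also as a regulator of the deacetylase Sirt1, had 290 CPM in carcinoma-like and 76.2 CPM in microglia-like cells (1.93, 1.29 to 2.64). In carcinoma-like cells Rpl36al and Rpl7l1 thus stood close to the core genes, Rps19bp1 and Rps27l above them and Rpl22l1 below. Rpl7l1 was not near the core genes everywhere: in the cluster led by Cd74 and H2-Eb1 it had 83.5 CPM against 110 CPM in microglia-like cells of Cx3cr1-null (−0.39, −1.43 to 0.55) and 60.2 CPM against 88.7 CPM in Cx3cr1-heterozygous (−0.56, −1.55 to 0.31), on 13 UMIs each. It was the lowest measured member in both, and also in the S100a8 and S100a9 cluster (−0.87) and the Igfbp7 and Cldn5 cluster (−0.83) of Cx3cr1-heterozygous, on 5 and 3 UMIs. How much 1 member differs from another by these intervals was not tested across animals.

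Among microglia-like cells, the members with most UMIs included Rpl13a, Rps9, Rps14, Rps3, Rpl32, Rps24, Rps21, Rpl4 and Rpl8. The 10 members with most UMIs together gave 43.1% of all member UMIs in metastasis 1, 33.6% in metastasis 2, 35.7% in naive 1, 45.6% in naive 2, 41.2% in Cx3cr1-null and 47.5% in Cx3cr1-heterozygous. Rpl13a (chr7:45125558-45128761, minus strand) had 2335 CPM in metastasis 1, 1592 CPM in metastasis 2, 2000 CPM in naive 1, 2065 CPM in naive 2, 2320 CPM in Cx3cr1-null and 2225 CPM in Cx3cr1-heterozygous. Rps9 (chr7:3703993-3706897, plus strand) had 2003 CPM in metastasis 1, 1510 CPM in metastasis 2, 2174 CPM in naive 1, 1857 CPM in naive 2, 2113 CPM in Cx3cr1-null and 1964 CPM in Cx3cr1-heterozygous. Both were lowest in metastasis 2, and the other 5 libraries lay close together. Rpl32 ranged over 993 to 2564 CPM and Rps21 over 580 to 2110 CPM, both highest in metastasis 1. Among the variant and other non-core members, Rpl36al ranged over 179 to 263 CPM, Rpl22l1 over 163 to 231 CPM, Rps27l over 138 to 229 CPM and Rpl7l1 over 59.6 to 110 CPM, while Rps4y2 ranged over 20.4 to 62.2 CPM and Rps19bp1 over 17.8 to 76.2 CPM. Of the 81 members, Rps3a2 in naive 1 and Rpl36a in metastasis 2 were at 0, and each had UMIs in the other 5 libraries. Levels between genes also carry the counting of near-identical copies: 71 members shared some 50-base windows of their last 300 transcript bases with another annotated gene. For a gene with several annotated transcripts, the value is that of the transcript with the largest share of windows copied. Genes with more transcripts can thus score higher: Rpl13a used 7 transcripts and Rps23 used 1. The 35 members with at least 80% of windows copied had a median of 72.2 CPM, and the 14 with under 20% had 372 CPM, with a rank correlation of −0.33 over 80 members (a description across genes, which are not replicates). Rps6, the classic target of the S6 kinases downstream of mTORC1, had 5.93 to 27.2 CPM over the 6 libraries, and 83.3% of its windows occur in 11 other genes. Rpl28 had 3.46 to 29.8 CPM, with 92.4% of windows copied. Reads from such copies may not have been counted, so a low level of a heavily copied member cannot be told apart from lost reads. Level did not follow copying in every member. Rpl13a, with the highest mean level, had 100% of windows copied, while Rps23, at a mean of 23.8 CPM, had 12.35%.

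The first comparison of conditions is microglia-like cells of brains with and without metastases. Members gave 4.73% and 3.49% of UMIs in metastasis 1 and 2, and 3.81% and 2.96% in naive 1 and 2. The 2 groups overlapped. The mean was 4.11 ± 0.874% in metastasis and 3.38 ± 0.604% in naive libraries (SD, n = 2 each), a difference of 0.726 points that is within the spread (two-sided exact permutation test over libraries, p = 0.667, where 0.333 is the smallest possible). Within replicate 1, both on the HiSeq 2500, metastasis was 0.916 points above naive, and within replicate 2, both on the NextSeq 500, 0.535 points. These pairs are also the 2 sequencers, so each within-sequencer value is a single pair. Both values rest on the group labels, which the names of some deposited tables do not go with, and metastasis 2 held 0 carcinoma-like barcodes. Were the 2 labels of a pair exchanged, its difference would change sign. The microglia-like cells of the 4 libraries lay in different clusters: 149 of 153 barcodes of metastasis 1 were in cluster 10, which held 0 barcodes of naive 1 and 1 of naive 2, while metastasis 2 and naive 1 were mostly in clusters 5 and 0 and naive 2 in clusters 1 and 0. Within cluster 0, members gave 2.95% in metastasis 2 and 2.87% in naive 2, much closer than over all microglia-like barcodes. Condition and cluster cannot be told apart for metastasis 1.

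**Figure D3:**
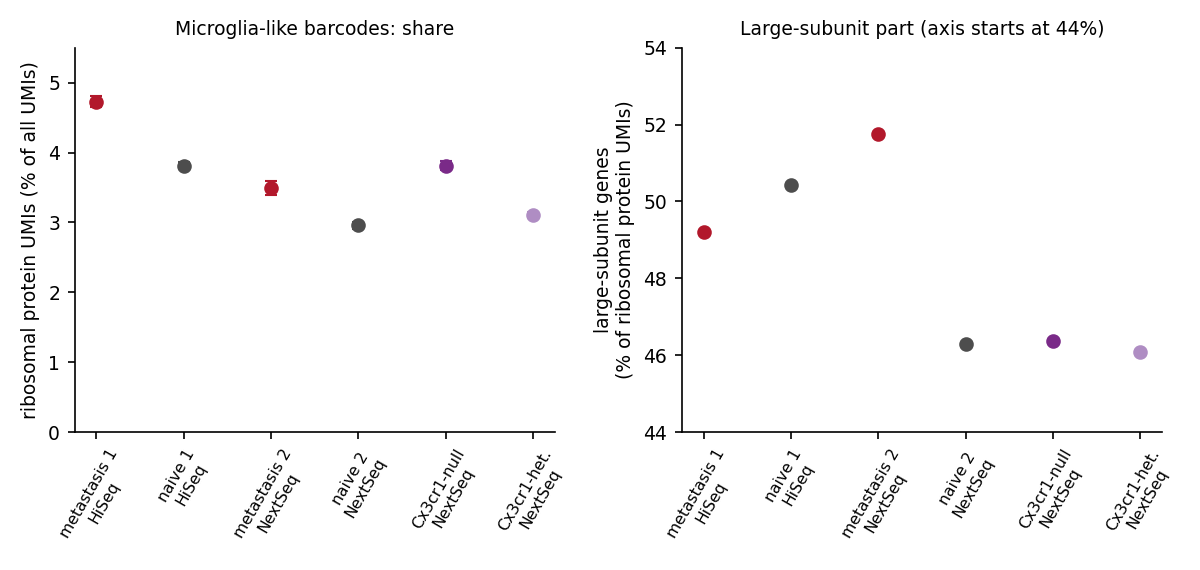
Left, share of UMIs from members in microglia-like cells of each library (percent, points with 95% counting intervals); right, large-subunit members as percent of member UMIs, on an axis that begins at 44%. Metastasis 1 is highest on the left at 4.73% and naive 2 lowest at 2.96%; on the right naive 2, Cx3cr1-null and Cx3cr1-heterozygous lie together at 46.1 to 46.4%.

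No member passed the test between metastasis and naive. edgeR's quasi-likelihood test with Benjamini-Hochberg adjustment on counts summed per library called 0 members of 74 tested, where 0.0% of 5395 genes were called (179 genes at an unadjusted p under 0.05, and 2 genes by DESeq2). The members' median log2 change was 0.15, that of all genes 0.01, and 44 of the 74 tested lay above 0, where 2739 of 5395 genes did. The lowest p belonged to Rpl10a, with 76.2 and 34.0 CPM in metastasis 1 and 2 and 169 and 119 CPM in naive 1 and 2. Its groups did not overlap, at a log2 change of −1.45 (SE 0.53, edgeR adjusted p = 0.985). How many of all genes have groups apart in this way was not counted. Without metastasis 2, 320 genes (4.72% of those tested) but 0 members were called, where metastasis 1, as the lone metastasis library, is assumed to vary as the naive ones do. Microglia-like cells of metastasis 1 also held summed markers of other classes with high member shares. Carcinoma markers had 443 CPM there and 0 to 54.4 CPM in the other 5 libraries, monocyte or macrophage markers 1975 CPM and 757 to 1298 CPM, and NK cell markers 104 CPM and 3.11 to 35.6 CPM in the same order. Their part in the values of metastasis 1 was not tested.

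Sequencers were compared over all 6 libraries. The labels give the sequencer but no batch of preparation and no run, so these cannot be told apart. Cx3cr1-null and Cx3cr1-heterozygous were both read on the NextSeq 500, so genotype is not balanced between the sequencers either. The members' share was 3.49% in metastasis 2, 2.96% in naive 2, 3.81% in Cx3cr1-null and 3.10% in Cx3cr1-heterozygous on the NextSeq 500, and 4.73% in metastasis 1 and 3.81% in naive 1 on the HiSeq 2500. The mean was 3.34 ± 0.387% (SD, n = 4) on the NextSeq 500 and 4.27 ± 0.648% (SD, n = 2) on the HiSeq 2500. The difference of −0.928 points did not pass the test (two-sided exact permutation test, p = 0.267, smallest possible 0.133). Taken only over microglia cluster 0, which 5 libraries held in at least 10 barcodes, the difference was −0.178 points, where metastasis 1 drops out for too few such barcodes; without metastasis 1 over all microglia-like barcodes it was −0.470 points. Microglia-like clusters also differed in share: a cluster led by casein transcripts, found mostly in naive 1 and metastasis 2, gave members 5.28% in metastasis 2 and 4.61% in naive 1, above the 2.95% and 3.46% of cluster 0 in the same libraries.

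edgeR called 0 of 75 members tested between sequencers, where 0.0483% of 6211 genes were called (0.0161% higher and 0.0322% lower on the NextSeq 500). Before adjustment 19 members and 632 genes had p under 0.05, and DESeq2 called 27 genes (0.435%) with 2 members, Rps16 and Rps7. The members' median log2 change was −0.33 and that of all genes −0.00. Of the 75 members tested, 59 lay below 0 and 16 above, where 3083 of 6211 genes lay above 0. Rps16 (chr7:28350652-28353155, plus strand), which contacts the tRNA in the peptidyl site, had 54.4 CPM in metastasis 2, 43.4 CPM in naive 2, 47.4 CPM in Cx3cr1-null and 22.2 CPM in Cx3cr1-heterozygous on the NextSeq 500, against 142 CPM in metastasis 1 and 281 CPM in naive 1 on the HiSeq 2500. Its sequencer groups did not overlap, with a log2 change of −2.58 (SE 0.42, edgeR adjusted p = 0.0600). Rps7 (chr12:28630854-28635953, minus strand) had 163 CPM in metastasis 2, 114 CPM in naive 2, 91.9 CPM in Cx3cr1-null and 44.3 CPM in Cx3cr1-heterozygous, against 468 CPM in metastasis 1 and 519 CPM in naive 1 (log2 change −2.44, SE 0.41, edgeR adjusted p = 0.0658). Rps7 groups were likewise apart. Without naive 1, edgeR called 7 of 78 members tested, beside 7.16% of all genes, which is near that share. Without metastasis 1 it called 4 of 79, beside 0.431% of all genes, and with no filter on low counts 11 of 81, beside 1.28%, 10 of them lower on the NextSeq 500. With 1 HiSeq 2500 library left out, the other one is assumed to vary as the NextSeq 500 libraries do. These members were named for their low p after the values were seen.

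Other members, likewise picked out after their values were seen, also had every NextSeq 500 library below both HiSeq 2500 libraries, but with a wide split among the NextSeq 500 libraries. Rpl41 (chr10:128548114-128549305, minus strand), the shortest ribosomal protein, had 993 CPM in metastasis 2, 276 CPM in naive 2, 465 CPM in Cx3cr1-null and 229 CPM in Cx3cr1-heterozygous, against 1389 CPM in metastasis 1 and 1264 CPM in naive 1. Rpl38 (chr11:114668524-114672331, plus strand), known for its need in the translation of Hox mRNAs in mouse embryos, had 395 CPM in metastasis 2, 62.3 CPM in naive 2, 83.0 CPM in Cx3cr1-null and 44.3 CPM in Cx3cr1-heterozygous, against 689 CPM in metastasis 1 and 592 CPM in naive 1. Rpl35 (chr2:39001580-39005624, minus strand), at the exit of the nascent chain tunnel, had 245 CPM in metastasis 2, 78.6 CPM in naive 2, 157 CPM in Cx3cr1-null and 55.4 CPM in Cx3cr1-heterozygous, against 419 CPM in metastasis 1 and 323 CPM in naive 1. For all 3 the sequencer groups did not overlap, with edgeR adjusted p-values of 0.357 for Rpl41, 0.298 for Rpl38 and 0.312 for Rpl35. How many of all genes have sequencer groups apart in this way was not counted, here or for Rps16 and Rps7. The separation can thus not be called particular to these members. Rpl41, Rpl38 and Rpl35 were lowest in naive 2, Cx3cr1-null and Cx3cr1-heterozygous, while metastasis 2, from the same sequencer, lay between these and the HiSeq 2500 libraries. The median share of mitochondrial UMIs per deposited barcode was 19.3 to 20.3% in the 3 low libraries and 2.96 to 8.64% in the 3 others, and its part in these levels was not tested. A few members ran the other way: Rpl31 had 129 CPM in metastasis 2, 65.0 CPM in naive 2, 91.9 CPM in Cx3cr1-null and 87.3 CPM in Cx3cr1-heterozygous, against 34.6 CPM in metastasis 1 and 20.2 CPM in naive 1 (log2 change 1.70, edgeR adjusted p = 0.254).

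**Figure D4:**
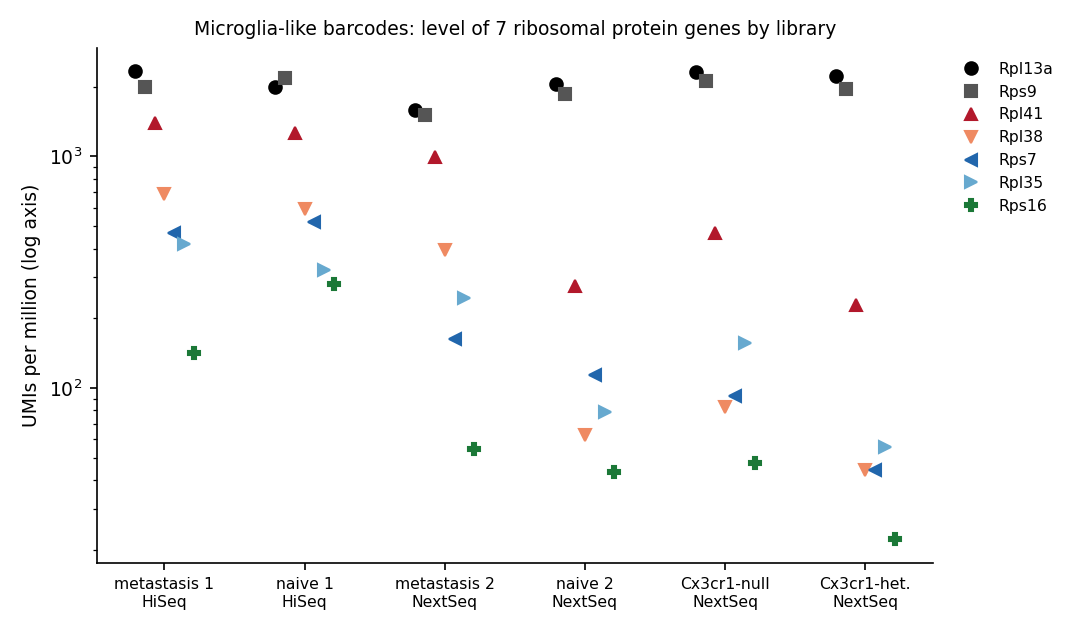
CPM in microglia-like cells (log axis) of 7 members by library. Rpl13a and Rps9 stay between 1510 and 2335 CPM, while Rpl41, Rpl38, Rps7, Rpl35 and Rps16 are lowest in Cx3cr1-heterozygous; for Rpl38 that is 44.3 CPM, against 689 CPM in metastasis 1.

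The balance of the subunits followed the same 3 libraries. Large-subunit members gave 49.2% and 51.7% of member UMIs in metastasis 1 and 2, 50.4% and 46.3% in naive 1 and 2, 46.4% in Cx3cr1-null and 46.1% in Cx3cr1-heterozygous. Neither the sequencer difference of −2.19 points (two-sided exact permutation test, p = 0.4) nor the metastasis against naive difference of 2.11 points (p = 0.667) passed its test.

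The Cx3cr1-null library was then set against the Cx3cr1-heterozygous library. With 1 library each there is no test, and intervals cover counting error only. Members gave 3.81% of microglia-like UMIs in Cx3cr1-null (3.75 to 3.88%) and 3.10% in Cx3cr1-heterozygous (3.06 to 3.14%), a difference of 0.71 points (0.61 to 0.82). The same direction stood in cluster 0 (4.07% in Cx3cr1-null, 3.24% in Cx3cr1-heterozygous) and in cluster 1 (3.73% and 3.09% in the same order). It was 0.414 points with a mitochondrial limit of 25%, 0.398 points over all deposited barcodes and 1.18 points with members among the variable genes. The main difference is no larger than that between naive 1 (3.81%) and naive 2 (2.96%), 2 libraries of the same group. However, naive 1 and naive 2 were read on different sequencers and lay largely in different microglia clusters. Cx3cr1-null and Cx3cr1-heterozygous shared a sequencer and lay mostly in clusters 0 and 1. The naive pair therefore does not measure the spread between libraries as alike as these. Of the 81 members, 58 had at least 50 UMIs over both libraries. Their median log2 ratio was 0.36, against −0.06 for all 3920 genes at that minimum, with a median of 0.41 for 33 large-subunit and 0.30 for 25 small-subunit names. The counting interval lay above 0 for 30 members, where it did for 7.42% of all genes, and below 0 for 1 member, Rpl4, where it did for 9.23%. Intervals are narrower for genes with more UMIs, and 39 of the 58 members but 774 of the 3920 genes had at least 200 UMIs. At a minimum of 100 UMIs the interval lay above 0 for 27 of 46 members and 10.89% of 1900 genes.

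One member, Rpl35, deviated from the others by the rule of more than 1 log2 unit from the members' median. It had 157 CPM from 53 UMIs in Cx3cr1-null and 55.4 CPM from 40 UMIs in Cx3cr1-heterozygous, a log2 ratio of 1.50 (0.88 to 2.13), or 1.15 above the members' median. The same rule held for 9.82% of all genes, 0.255% above and 9.57% below, beside 1.72% of the 58 members. The limits lie around the members' median of 0.36, while the median of all genes was −0.06. The lower limit is thus nearer to the median of all genes than the upper one. These shares are also not matched for UMIs. Where 200 UMIs were required, the rule held for 2.71% of 774 genes and for 0 of 39 members. The level of Rpl35 in Cx3cr1-null lay within the range of the 4 libraries of unaltered Cx3cr1, 78.6 to 419 CPM. Its level in Cx3cr1-heterozygous lay below that range. UMIs of Rpl35 came from 37 barcodes in Cx3cr1-null and 36 in Cx3cr1-heterozygous, and the 3 barcodes with most of them held 20.8% and 17.5% of these UMIs in the same order. Of the windows at its 3′ end, 96.0% also occur in other annotated genes, and with a minimum of 100 UMIs it was no longer measured and 0 members deviated. No member deviated either after thinning, over all kept barcodes or over all deposited barcodes, and with a mitochondrial limit of 25% Rps23 did and Rpl35 did not. Just inside the limit on the higher side stood, among others, Rps4x with a log2 ratio of 1.25 and Rps25 with 1.15, which also vary widely between libraries of unaltered Cx3cr1. Rps25 had 382 CPM in Cx3cr1-null and 172 CPM in Cx3cr1-heterozygous, and Rps4x had 175 CPM and 73.4 CPM in the same order. On the lower side the nearest were Rpl4 with −0.18 (−0.35 to −0.00) and Rpl8 with −0.13. Rpl4, which lines the exit tunnel (chr9:64173375-64178666, plus strand), had 1132 CPM in Cx3cr1-null and 1279 CPM in Cx3cr1-heterozygous.

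**Figure D5:**
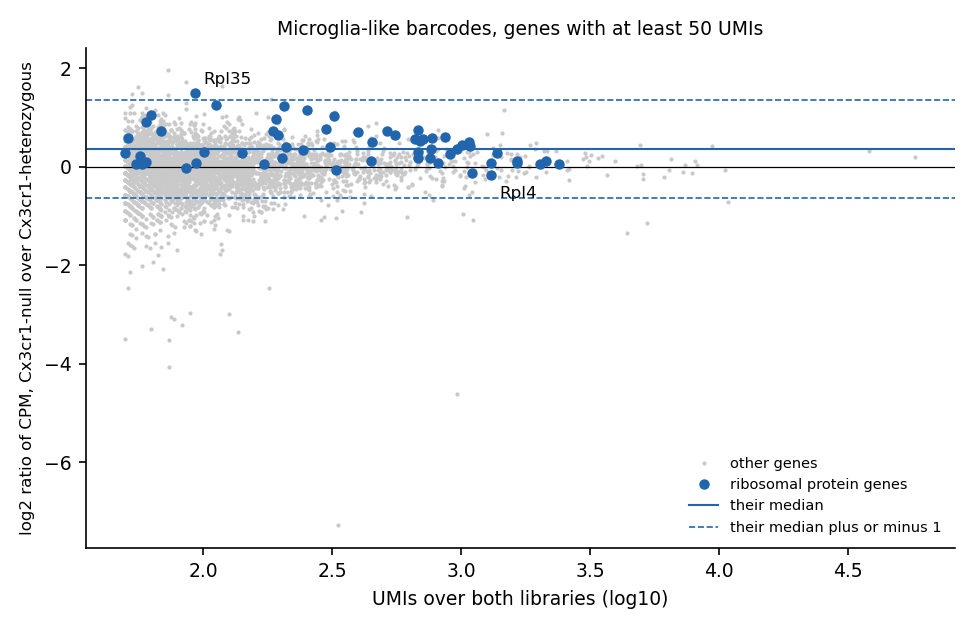
Log2 ratio of Cx3cr1-null over Cx3cr1-heterozygous CPM in microglia-like cells (vertical axis) against the log10 of the UMIs of both libraries, for members in colour and other genes in grey, with lines at the members' median of 0.36 and 1 log2 unit to either side. Most members lie above 0, Rpl35 at 1.50 lies past the upper line and Rpl4 at −0.18 has an interval below 0.

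Of the most abundant members, Rpl13a had a log2 ratio of 0.06 (−0.06 to 0.18) and Rps9 of 0.11 (−0.03 to 0.24), so both were close to equal in the pair. Rps21 had 1168 CPM in Cx3cr1-null and 856 CPM in Cx3cr1-heterozygous, Rps24 1482 CPM and 1218 CPM, and Rpl41 465 CPM and 229 CPM (1.02, 0.70 to 1.35) in the same order. Among variant copies Rpl36al stood at 0.41, Rpl22l1 at 0.18, Rps27l at 0.05, Rpl7l1 at 0.31 and Rps4y2 at 0.58, each with an interval that spans 0. Rps3a2, Rps3a3 and Rps19bp1 had too few UMIs. Marker sums of other cells also differed in the microglia-like barcodes: monocyte or macrophage markers had 1298 CPM in Cx3cr1-null and 819 CPM in Cx3cr1-heterozygous, ependymal or choroid plexus markers 631 and 1228 CPM, and mural markers 139 and 491 CPM in the same order. Without the barcodes that drew over 1% of UMIs from such markers, 7 in Cx3cr1-heterozygous and 0 in Cx3cr1-null, the share difference was 0.70 points and Rpl35 remained the 1 deviating member.

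Genes around the ribosome were read from lists in the same pair, where 7.42% of all genes had an interval above 0 and 9.23% below 0. Ribosomal genes outside the name rule stood on the side of the members: 4 of 7 measured had an interval above 0, with a median of 0.38. Among them the stalk proteins Rplp1, Rplp2 and Rplp0 stood at 0.22 (3678 CPM in Cx3cr1-null, 3166 CPM in Cx3cr1-heterozygous), 0.66 (1585 and 1005 CPM) and 0.38 (1494 and 1146 CPM), and Gnb2l1 at −0.18. Elongation factors and other TOP mRNAs had a median of 0.12, with 2 of 14 above 0 and 1 below by interval; Eef1a1, which brings tRNA to the ribosome, had 1826 CPM in Cx3cr1-null and 1135 CPM in Cx3cr1-heterozygous (0.69, 0.53 to 0.84). Initiation factors had a median of −0.09, with 0 of 16 above and 2 below, among them the helicase Eif4a1 at −0.50. Ribosome assembly factors had a median of −0.40, with 1 of 12 above and 3 below, including nucleolin (Ncl, 527 CPM in Cx3cr1-null and 755 CPM in Cx3cr1-heterozygous, −0.52) and Gnl3 at −0.91. mTORC1 genes had a median of −0.34, with 0 of 8 above and 1 below, and mitochondrial ribosomal protein genes a median of 0.12, with 3 of 23 above and 0 below. Between metastasis and naive, edgeR called 0 genes of any list; all 15 assembly factors tested had a log2 change above 0, with a median of 0.75, where 2739 of 5395 genes lay above 0, with a median of 0.01. Summed over the list, assembly factors took 0.622% of microglia-like UMIs in metastasis 1, but only 0.197% in metastasis 2. Their share was 0.199% in naive 1 and 0.232% in naive 2, so the summed level was raised in metastasis 1 alone. Ncl had 2990 CPM in metastasis 1 and 878 CPM in metastasis 2, against 860 CPM in naive 1 and 786 CPM in naive 2. Metastasis 1 thus stood apart, the library whose microglia-like cells form a cluster of their own and hold the markers of other cells given above.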

How the data were processed

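Per the labels, 6 Drop-seq libraries (Nextera XT) were made from mouse brain; the submitters' processing notes name STAR, Seurat and mm10, without their roles. The authors deposited whole-number UMI counts per gene and barcode, 1000 barcodes a library, with 491621 to 2667099 UMIs. UMIs of near-identical gene copies may be lost or misplaced in such counts. Barcodes with at least 400 genes and under 10% mitochondrial UMIs were kept, and the 5% with the highest Scrublet score per library were removed as doublets. Cells were clustered with scanpy 1.11.5 (2000 variable genes without members, 30 components, 15 neighbours, Leiden resolution 1). Clusters were named from fixed marker lists by the share of barcodes with a UMI, with thresholds set after the clusters were seen (mean share at least 0.5, margin 0.15). Names are rebuilt, since no annotation was used, and clusters that miss the thresholds stay unnamed.

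Counts summed per library over microglia-like barcodes were tested with edgeR 4.0.16 (quasi-likelihood, TMM, filterByExpr, Benjamini-Hochberg over all genes, threshold 0.05), with DESeq2 1.42.0 in R 4.3.3 as an alternative. On simulated data, edgeR recovered 94.0% of 200 genes changed by 2 log2 units for metastasis against naive and 96.5% for the sequencers. The simulation left out genes with few UMIs and used a spread fixed in advance, not one taken from these libraries. These rates therefore need not hold for the real libraries, where Rps16 at −2.58 and Rps7 at −2.44 between sequencers were not called. Shares were compared by exact permutation over libraries (Python 3.11.15), and single libraries by exact 95% intervals, which cover counting error only. Replicate libraries of unaltered mice are separate brains. In the metastasis test the replicates of a group also differ in sequencer. Its p-values thus measure the spread between brains together with sequencer and any difference of preparation. In the sequencer test both groups mix metastasis and naive libraries. The larger group also holds the pooled Cx3cr1-null and Cx3cr1-heterozygous libraries, so the spread in this test includes condition and genotype as well. Named genes were the 10 members with most UMIs in microglia-like cells, members that deviate between Cx3cr1-null and Cx3cr1-heterozygous with the 3 nearest inside the limit on each side, up to 10 past each test, the non-core members and up to 4 genes of each list. A few members that this rule names are not reported here. The members and lists were chosen with earlier results of these data known. Gene coordinates are from the GENCODE M21 annotation of GRCm38.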

Additional observations from a re-analysis of the deposited data

Results flagged for a closer look

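Among 22 measures tested over the 4 NextSeq 500 libraries for a value far from the other 3, 1 stood apart, and chance alone flags about 1 in 20. Large-subunit members gave 51.7% of member UMIs in metastasis 2, far above the other 3 NextSeq 500 libraries at 46.1 to 46.4%.

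The 24 row names with -ps, which the name rule left out, held 6575 UMIs over all deposited barcodes. In microglia-like cells they came to 3.25% of the members' UMIs in metastasis 2, 2.61% in naive 2, 2.42% in Cx3cr1-null and 1.76% in Cx3cr1-heterozygous on the NextSeq 500, against 0.564% in metastasis 1 and 1.27% in naive 1 on the HiSeq 2500. The sequencer groups did not overlap, with a difference of 1.60 points at the smallest p the design allows (two-sided exact permutation test, p = 0.133).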

How the results depend on the processing

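Of 672 values recomputed under other settings, 564 counted as unchanged by the rule set for their kind. For shares and ratios of single libraries the rule was to stay inside the main counting interval, so a value near 0 could change sign. The permutation tests over libraries could not change call, since even with all libraries their smallest possible p-values were 0.333 and 0.133. The share difference between Cx3cr1-null and Cx3cr1-heterozygous was 0.414 points with a mitochondrial limit of 25%, 0.936 over all kept barcodes, 0.398 over all deposited barcodes, 1.18 with members among the variable genes and 0.827 in cluster 0 (chosen after seeing the data). That between carcinoma-like and microglia-like cells was 5.53 points by the median barcode and 5.39 after thinning; that of border-associated macrophage-like cells became −0.0329. Deviating members numbered 5 at a minimum of 20 UMIs (Rpl12, Rpl35, Rpl7a, Rps19bp1, Rps23), 2 at 200 genes per barcode (Rpl35, Rps7) and 0 at 100 UMIs, after thinning, over all kept and over all deposited barcodes; at a limit of 25% the 1 deviating member was Rps23, not Rpl35. Members with an interval above 0 numbered 16 relative to member UMIs only and 12 after thinning. Relative to member UMIs only, 33 of 58 members lay above 0 and 10 had an interval below 0, against 54 and 1 in the main setting. Among the named members whose main interval left out 0, Rps24 turned to −0.0145 relative to member UMIs. Rpl4 turned to 0.0335 after thinning and 0.0304 with members among the variable genes. Between metastasis and naive, genes called numbered 2 by DESeq2, 59 without a low-count filter and 0 to 320 leaving out 1 library, with 0 members in each. Between sequencers they numbered 27 by DESeq2, 204 without the filter, 0 over all deposited barcodes, with members among the variable genes, without barcodes rich in markers of other cells and in the 4 unaltered libraries, and 0 to 519 leaving out 1 library; members called numbered 2, 11 and 0 to 7 in the first, second and last of these. With 1 library left out, the share difference spanned 0.108 to 1.34 points between metastasis and naive and −1.39 to −0.470 between sequencers. With the replicate block, metastasis against naive differed by 0.726 points (exact sign-flip test, p = 0.5) and 0 genes were called. Same-numbered libraries did not deviate together (r = −0.128 over 5395 genes), and the crossed pairing, added after seeing the data, called 2 genes and 0 members. The cause of these changes was not tested. Depth limits mostly metastasis 2, where 24 members had under 10 UMIs.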

Other observations

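Rps3a3, annotated as a processed pseudogene of a small-subunit gene, had 61.2 CPM in metastasis 2, 43.4 CPM in naive 2, 35.6 CPM in Cx3cr1-null and 18 CPM in Cx3cr1-heterozygous, against 10.4 CPM in metastasis 1 and 4.66 CPM in naive 1. The sequencer groups did not overlap, in the same direction as the -ps rows, on 3 to 16 UMIs a library. How many of all genes do so was not counted. Casein transcripts made up 0.0749% of the UMIs of microglia-like cells in naive 1.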
